A study of Mus musculus with 4 samples.

Results

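The genes of DNA repair and damage signalling were taken from the authors' deposited table of 1 comparison in mouse morulae, embryos at the stage just before a blastocyst cavity forms. They are its rows whose symbols belong to the families and single genes of excision repair, mismatch repair, recombination, end joining, the Fanconi pathway and checkpoint signalling, chosen by symbol alone. The pattern matched 90 of 13658 genes, and 88 of these had an adjusted p. The siNr1h2 group was 2 samples of wild-type morulae injected at the 1-cell stage with a pool of small interfering RNAs against Nr1h2, which encodes the nuclear receptor LXRβ. The siNT group was 2 samples of wild-type morulae injected in the same way with a non-targeting siRNA. Both received 4 to 5 pL at 100 µM and were cultured in M16 medium. The number of embryos in a sample is not given in the sources used here, nor whether replicates came from separate sessions. The p-values therefore set the group difference only against the variation estimated from these 4 samples, and some of that variation may be technical. In samples of whole embryos, fewer cells of a type and less RNA per cell cannot be told apart.

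DNA repair works by routes that differ in the lesion they meet. Glycosylases remove damaged bases, the endonuclease Apex1 cuts at the abasic site left behind, and the scaffold Xrcc1 brings Lig3 to close the nick. Nucleotide excision cuts out bulky lesions, mismatch repair corrects replication errors, homologous recombination copies the sister chromatid to mend a break with the help of Brca2 and Palb2, and end joining seals the ends directly. The kinases Atm and Atr signal breaks and stalled forks to Chek2 and Chek1. Mouse embryos that lack Brca2, Palb2, Xrcc1 or Lig3 die before birth.

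The deposited data hold a mean normalized count per gene taken by the authors across the 4 samples, the log2 fold change of siNr1h2 over siNT with its standard error (SE), and the p-values, with no value per sample. Depth per sample is therefore unknown. A level per group was computed from the deposited mean and fold change as the pair of values that have this mean and this ratio; it is called the implied level, has no SD, and rests on equal group sizes. The targeted transcript Nr1h2 had an implied level of 141 normalized counts in siNr1h2 and 709.6 in siNT morulae, which left 19.9% of the control level (95% interval 15.4% to 25.7%, from the fold change and SE per the authors' deposited table). All 10 morula markers examined were listed, with mean normalized counts of 90.8 to 15084 per the authors' deposited table. Of markers of other cells, 0 of 6 sperm genes, 2 of 9 cumulus and granulosa genes (means up to 2.89) and 2 of 6 blood genes were listed. These blood genes were Hba-a1, with a mean of 24.6, and Cd68, with 150.3, per the authors' deposited table.

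In siNr1h2 morulae, 79 of the 88 tested repair and damage signalling genes had a log2 fold change under 0.5 in either direction. Over all 12069 tested genes 9830 did, so that 10.2% of members and 18.6% of tested genes lay at 0.5 or beyond. Of the members, 2 passed the test. Xrcc1 rose and Brca2 fell at an adjusted p under 0.05 in the authors' Wald test, 86 members did not pass, and Parp10 and Parp14 had no adjusted p per the authors' deposited table. The called share of 2.27% of the 88 tested members stood beside a background of 1.98% of all 12069 tested genes. By direction, 1 member was lower against a background of 1.52%, and 1 was higher against a background of 0.456%. At an unadjusted p under 0.05 there were 9 members, or 10.2% against 13.3% of all tested genes. Of these 5 were lower and 4 higher, beside backgrounds of 7.31% lower and 5.97% higher. The members' median log2 fold change was -0.02 (-0.13 when centred on ribosomal protein genes, which moved every gene by 0.11 downward, 0.02 when centred on genes with a mean of at least 500, and 0.01 with the trend in length and GC removed), against 0.00 over all tested genes, per the authors' deposited table. There were 47 members below 0, or 53.4%, against 49.4% of all tested genes, and 41 above. The members' quartiles lay at -0.18 and 0.19 on the log2 scale, against -0.20 and 0.22 for all tested genes.

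**Figure D1:**
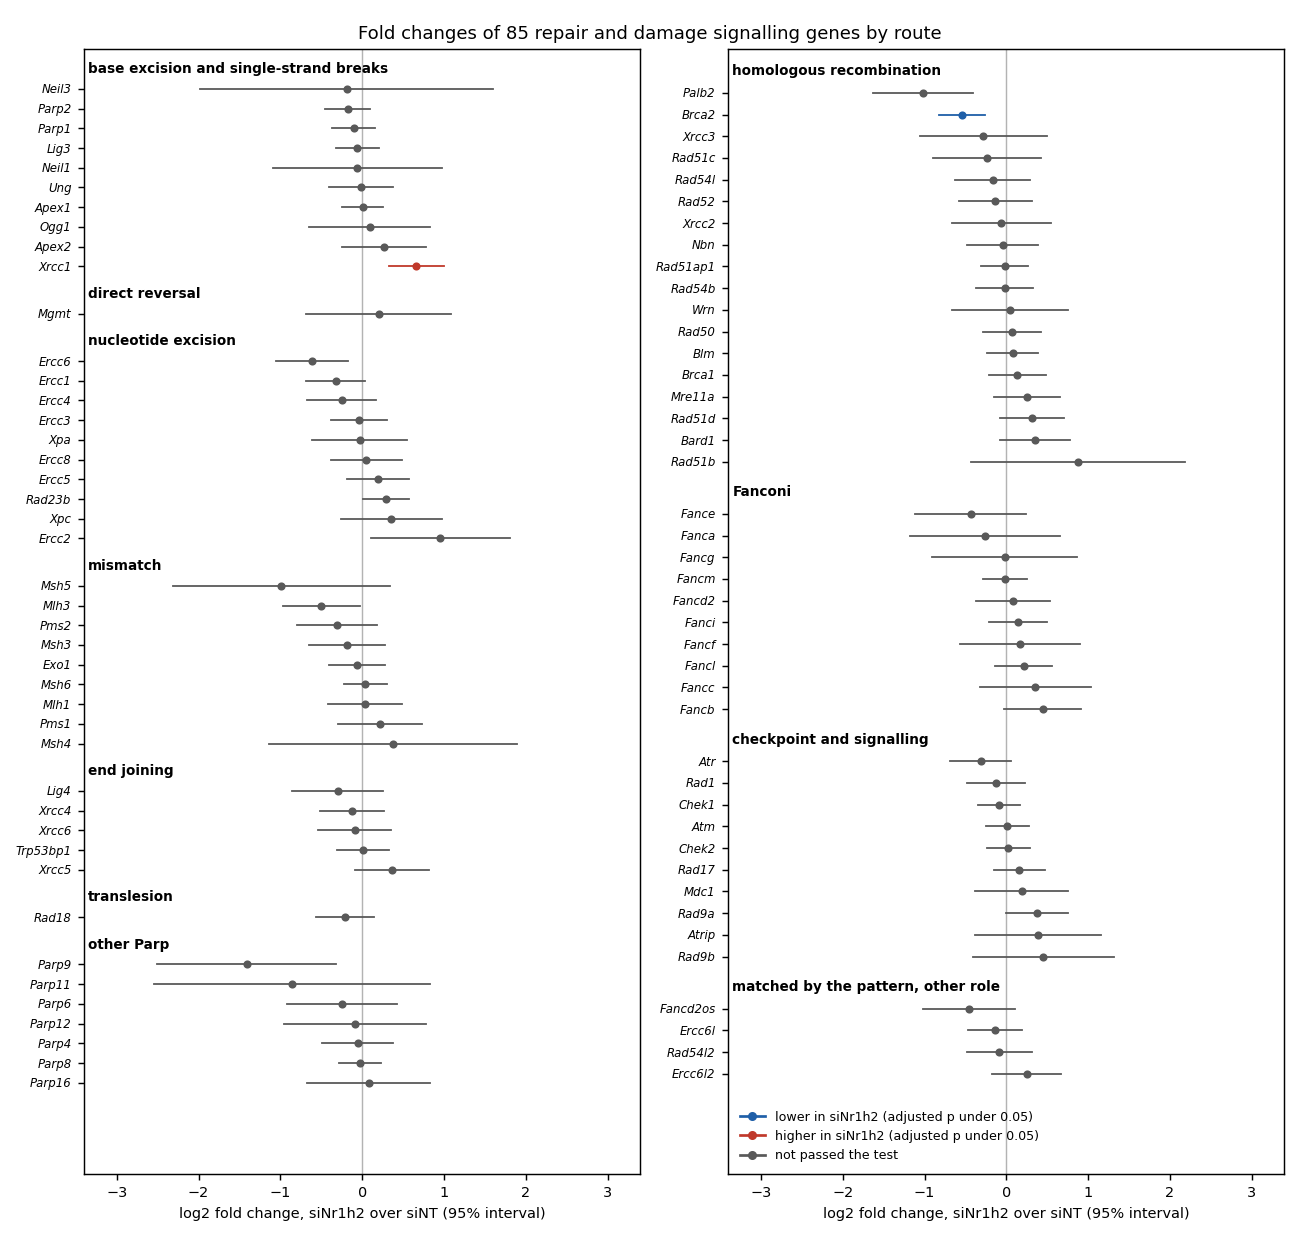
Log2 fold changes of siNr1h2 over siNT for 85 of the 88 members with an adjusted p, by repair route. Points are the deposited fold changes and lines their 95% intervals; colour marks the test result. Xrcc1 is the 1 member called higher and Brca2 the 1 called lower, and wide intervals belong to members with few counts, such as Neil3 and Msh5.

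The promoters of both called genes are shown because these genes carry the 2 changes that passed. They come from the RefSeq promoter table on GRCm38.p6 and run from 250 bases before the annotated start to 10 after it, on the + strand. Capitals mark letters that match a motif searched on both strands. The motifs were E2F (TTTGGCGC, TTTCCCGC or TTTGGCGG), NRF1, CHR, CCAAT, the nuclear receptor half-site AGGTCA, and the DR4 element of the liver X receptors, which is a direct repeat of that half-site with 4 bases between. CHR was searched as TTTGAA and in its variant form as TTCGAA.
Xrcc1, chr7:24546449-24546708: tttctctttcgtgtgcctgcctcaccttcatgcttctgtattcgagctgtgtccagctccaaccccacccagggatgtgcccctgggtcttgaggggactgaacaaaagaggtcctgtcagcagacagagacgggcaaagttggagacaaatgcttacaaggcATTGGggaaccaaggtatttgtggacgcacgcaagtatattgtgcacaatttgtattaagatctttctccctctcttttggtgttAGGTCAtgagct
Brca2, chr5:150522371-150522630: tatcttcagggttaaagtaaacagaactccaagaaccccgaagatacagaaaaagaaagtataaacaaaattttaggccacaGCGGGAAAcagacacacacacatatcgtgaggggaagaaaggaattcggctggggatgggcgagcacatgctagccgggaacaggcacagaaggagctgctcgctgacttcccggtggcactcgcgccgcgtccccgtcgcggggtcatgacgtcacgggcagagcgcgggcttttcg
In the Xrcc1 window the half-site begins 2 bases before the start, and a CCAAT match on the reverse strand begins 87 bases before it. The Brca2 window holds 1 E2F match, on the reverse strand, beginning 168 bases before the start. The CpG count was 5 in the Xrcc1 window and 20 in the Brca2 window.

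Of the members, 69 matched a promoter in that table by symbol. Within 300 bases (250 before the start and 50 after), an E2F match stood in 11 of the 69, or 15.9%, against 4.53% of 9770 tested genes with a promoter and 2.39% of all 27025 genes with one. Bard1, Brca2, Chek1, Chek2, Fancg, Mdc1, Msh3, Msh5, Msh6, Rad51c and Xrcc6 held it, and Brca2 was the only called gene among them. The shares for NRF1 were 18.8% of members and 11.8% of tested genes, and for CCAAT 55.1% and 43.8%. The CHR letters stood in 14.5% of members and 16.6% of tested genes. The half-site stood in 9 members, or 13.0%, against 14.8% of tested genes, and Xrcc1 was the only called gene among those 9. No member held the DR4 letters in this window, nor did any tested gene. These exact letters stood in 4 of all 27025 genes with a promoter, so their absence does not set members apart. A match is a description of these letters and not a bound site.

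In base excision and single-strand break repair, Xrcc1 stood at an implied level of 539 normalized counts in siNr1h2 and 341 in siNT morulae. This scaffold transcript was 1.58 times higher (95% interval 1.25 to 1.99, adjusted p = 0.0123 per the authors' deposited table). The call was lost when a linear trend of fold change with transcript length and GC content was removed, which gave 0.52 on the log2 scale (adjusted p = 0.103) in place of 0.66 ± 0.17 (SE). Over all alternatives its adjusted p ran from 0.00723 to 1. The longest annotated Xrcc1 transcript has 59.3% GC, against a median of 49.5% over tested genes. Its ligase partner Lig3 had implied levels of 1700 in siNr1h2 and 1772 in siNT (ratio 0.959, 95% interval 0.800 to 1.15 per the authors' deposited table). Apex1, the main abasic-site endonuclease, was the most abundant member both in counts and per length, and its ratio was 1.00 (0.845 to 1.19 per the authors' deposited table). The break sensors Parp1 and Parp2 had ratios of 0.930 (0.774 to 1.12) and 0.883 (0.730 to 1.07) per the authors' deposited table. Apex2, a relative of Apex1, stood at a log2 fold change of 0.26 ± 0.26 (SE), and the uracil glycosylase Ung at -0.01 ± 0.20 per the authors' deposited table. The glycosylases for oxidised bases were scarce, with mean normalized counts of 57.1 for Ogg1, 26.3 for Neil1 and 8.74 for Neil3, so that changes under 2.37, 3.34 and 8.09 times could not have been called for them. Of the 10 members of this route, Xrcc1 alone passed, beside 1.98% of all tested genes called in either direction. The route's median log2 fold change was -0.04. The direct-reversal enzyme gene Mgmt stood at 0.20 ± 0.45 (SE per the authors' deposited table).

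Homologous recombination held the other called gene. Brca2, a tumour suppressor of this route, had implied levels of 620.2 normalized counts in siNr1h2 and 905 in siNT morulae. It was 1.46 times lower (95% interval 1.20 to 1.77, adjusted p = 0.0147 per the authors' deposited table), and the call held after removal of the length and GC trend (adjusted p = 0.0414), with adjusted p-values of 0.000829 to 1 over all alternatives. Palb2, which ties Brca1 to Brca2, had implied levels of 63.4 in siNr1h2 and 128 in siNT, a ratio of 0.495 (95% interval 0.324 to 0.757) that missed the threshold (adjusted p = 0.0559 per the authors' deposited table). Adjusted over the genes with a mean of at least 50 it passed, at 0.0491, in a range of 0.0153 to 1 over all alternatives. The partners Brca1 and Bard1 stood at log2 fold changes of 0.14 ± 0.18 (SE) and 0.35 ± 0.22 per the authors' deposited table. The break-binding trio Mre11a, Rad50 and Nbn lay between -0.05 and 0.25 per the authors' deposited table. Rad51d, of the BCDX2 complex, stood at 0.31 ± 0.20 (SE), and its partner Rad51b at 0.88 ± 0.67 on a mean of 16.4 normalized counts per the authors' deposited table. The helicase gene Blm and the recombination cofactor gene Rad51ap1 had ratios of 1.06 (0.851 to 1.31) and 0.984 (0.807 to 1.20) per the authors' deposited table. Of the 19 members of this route 1 fell and 18 did not pass, and 10 lay below 0, with a median log2 fold change of -0.02. Over all tested genes the background was 1.52% called lower and 49.4% below 0.

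**Figure D2:**
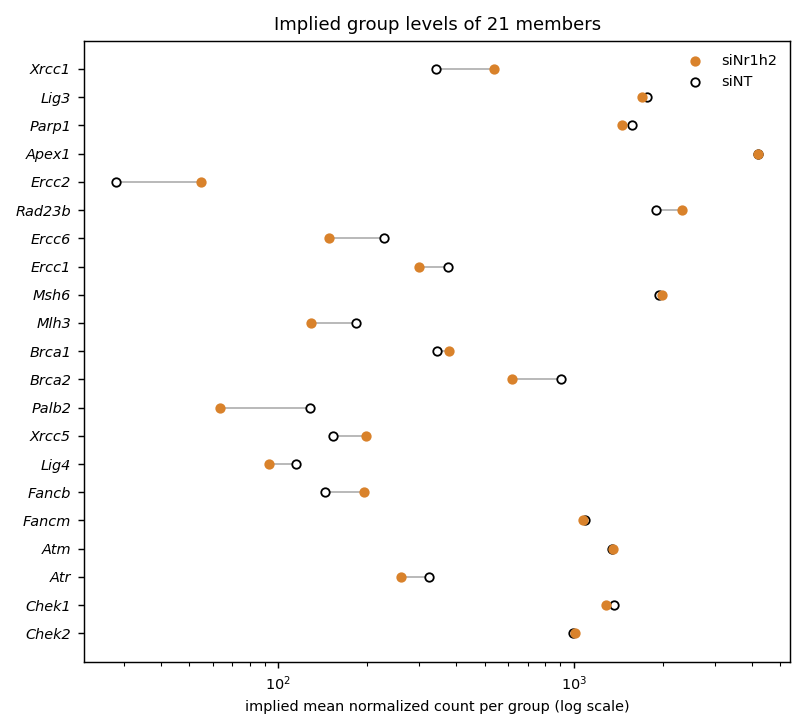
Implied mean normalized count per group (log axis) of 21 members, siNr1h2 as filled and siNT as open circles, joined by a line for each gene. Palb2 at 63.4 in siNr1h2 and 128 in siNT and Ercc2 at 54.8 in siNr1h2 and 28.2 in siNT are the widest gaps, while Apex1, Atm and Chek2 nearly coincide.

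None of the 11 nucleotide excision members passed after adjustment, beside 1.98% of all tested genes called. At an unadjusted p under 0.05, 1 was lower and 3 were higher, beside backgrounds of 7.31% lower and 5.97% higher over all tested genes. Ercc6 (CSB), which detects stalled RNA polymerase, had implied levels of 148 in siNr1h2 and 228 in siNT, a ratio of 0.652 (95% interval 0.481 to 0.884, adjusted p = 0.139 per the authors' deposited table). Its partner Ercc8 (CSA) stood at a log2 fold change of 0.05 ± 0.22 (SE per the authors' deposited table). Ercc2, a helicase of TFIIH, had implied levels of 54.8 in siNr1h2 and 28.2 in siNT, a ratio of 1.94 (1.07 to 3.51, adjusted p = 0.302 per the authors' deposited table). The other TFIIH helicase gene, Ercc3, had a ratio of 0.973 (0.766 to 1.24 per the authors' deposited table). Rad23b, a partner of the damage sensor Xpc, had a ratio of 1.23 (1.01 to 1.49, adjusted p = 0.359) per the authors' deposited table. Xpc stood at 0.36 ± 0.31 (SE), and the subunits of the 5′ side nuclease, Ercc1 and Ercc4, at -0.33 ± 0.18 and -0.25 ± 0.22 per the authors' deposited table. In this route 5 of 11 members lay below 0 and 6 above.

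Of 10 mismatch repair members 6 lay below 0, beside 49.4% of all tested genes. None passed, beside 1.98% of all tested genes called. At an unadjusted p under 0.05 there was 1, beside a background of 13.3%. That gene was Mlh3, the MutLγ subunit, with a ratio of 0.708 (95% interval 0.510 to 0.981, adjusted p = 0.340 per the authors' deposited table). The mismatch sensor subunit Msh6 had a ratio of 1.03 (0.854 to 1.23) per the authors' deposited table. Pms2, the endonuclease subunit of MutLα, stood at a log2 fold change of -0.31 ± 0.25 (SE per the authors' deposited table). The meiotic genes Msh4 and Msh5 had mean normalized counts of 12.5 and 16.4, and Msh5 stood at -0.99 ± 0.68 (SE per the authors' deposited table).

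Among the 5 end-joining members none passed and none had an unadjusted p under 0.05. The backgrounds over all tested genes were 1.98% called and 13.3% at that unadjusted p. The Ku subunit genes Xrcc5 and Xrcc6 stood at 0.37 ± 0.23 (SE) and -0.09 ± 0.23, the ligase gene Lig4 at -0.30 ± 0.28 with its scaffold Xrcc4 at -0.13 ± 0.20, and the break-end factor Trp53bp1 at 0.01 ± 0.16 per the authors' deposited table. Fanconi members were taken by Fanc symbol alone, without Fancd2os, and Brca2 and Palb2 were counted under homologous recombination. The 10 Fanconi members so defined, which unlink DNA crosslinks, likewise held none past either threshold, beside the same backgrounds. Their median log2 fold change was 0.11. The translocase gene Fancm, the most abundant of them, had a ratio of 0.988 (95% interval 0.820 to 1.19), and the core-complex gene Fancb one of 1.36 (0.978 to 1.89) per the authors' deposited table. The ubiquitin ligase Fancl stood at 0.21 ± 0.18 (SE), Fancc at 0.35 ± 0.34 and Fance at -0.44 ± 0.35 per the authors' deposited table. The translesion ligase gene Rad18 stood at -0.21 ± 0.18 (SE per the authors' deposited table).

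Checkpoint and signalling transcripts included some of the best measured members. None of the 10 passed either threshold, beside backgrounds of 1.98% of all tested genes called and 13.3% at an unadjusted p under 0.05. The apical kinase gene Atm had implied levels of 1360.1 in siNr1h2 and 1350.0 in siNT, a ratio of 1.01 (95% interval 0.841 to 1.21 per the authors' deposited table). Its substrate kinase gene Chek2 had a ratio of 1.02 (0.846 to 1.22) and Chek1, the kinase downstream of Atr, one of 0.940 (0.784 to 1.13) per the authors' deposited table. Atr stood at a log2 fold change of -0.31 ± 0.19 (SE) and its partner Atrip at 0.39 ± 0.39 per the authors' deposited table. Of the checkpoint clamp and its loader, Rad9a stood at 0.38 ± 0.19 (SE), Rad1 at -0.12 ± 0.18 and Rad17 at 0.16 ± 0.16 per the authors' deposited table. The Rad9 paralogue gene Rad9b stood at 0.45 ± 0.44 (SE per the authors' deposited table).

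The pattern also matched 9 further Parp genes and 4 genes that were not placed in a route. None of the 11 with an adjusted p passed, beside 1.98% of all tested genes called. Parp9, a partner of the ubiquitin ligase Dtx3l, had the lowest fold change of all tested members, with implied levels of 13.5 in siNr1h2 and 36.0 in siNT and a ratio of 0.375 (95% interval 0.176 to 0.800, adjusted p = 0.202 per the authors' deposited table). Parp8, the most abundant of these, had a ratio of 0.981 (0.822 to 1.17 per the authors' deposited table). Parp11, Parp6 and Parp4 stood at log2 fold changes of -0.86 ± 0.86 (SE), -0.25 ± 0.35 and -0.06 ± 0.22 per the authors' deposited table. Ercc6l, a mitotic translocase, Ercc6l2, Rad54l2 and Fancd2os lay between -0.45 and 0.25 per the authors' deposited table. Without these 13 genes the members' median was 0.00, with 38 of 77 below 0.

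The precision of the deposited values sets what these results can show. For a member of median precision a change of 1.66 times was needed to be called, against 1.68 for all tested genes. The 95% interval lay within 1.5 times either way for 37 of 88 members, or 42.0%, against 40.7% of all tested genes, and within 2 times either way for 70 members, or 79.5%, against 68.0%. A log2 fold change of at least 0.5 in either direction was listed for 9 members, or 10.2%, against 18.6% of tested genes. These 9 were Xrcc1, Brca2, Palb2, Ercc6, Ercc2, Parp9, Parp11, Msh5 and Rad51b, of which the last 4 and Ercc2 had mean normalized counts under 50 per the authors' deposited table.

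**Figure D3:**
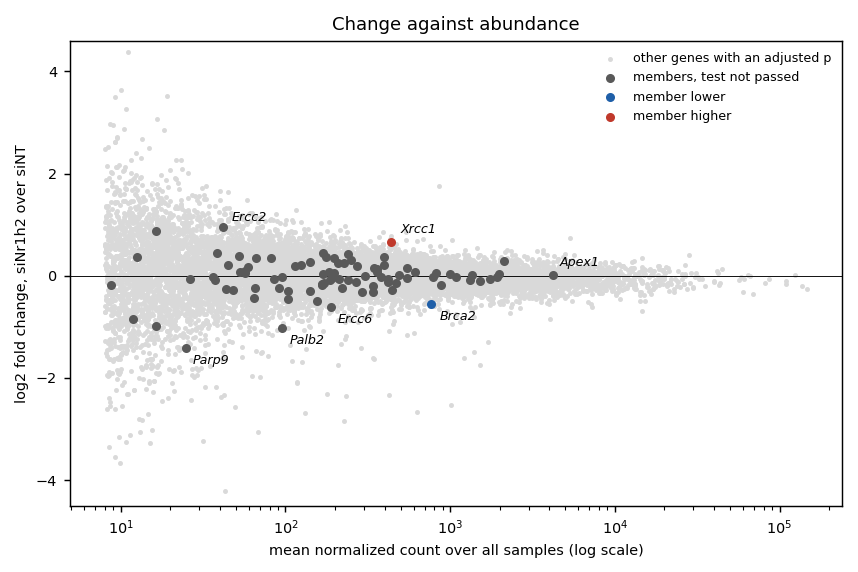
Log2 fold change of siNr1h2 over siNT against the authors' mean normalized count (log axis) for the 88 members and the other tested genes in grey. The members lie inside the grey cloud, which widens at low counts; Xrcc1, Brca2 and 5 further members are labelled.

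Levels among members, per kilobase of the longest annotated transcript, spanned a wide range. Apex1 led with 3396 normalized counts per kilobase, above 97.1% of all listed genes, followed by Parp8 with 562, Rad23b with 556, Msh6 with 463, Chek2 with 441 and Parp2 with 408 per the authors' deposited table divided by length. Xrcc1 stood at 174 and Brca2 at 71.1 on this scale, and Parp14 was lowest at 0.480. The median was 46.8 for tested members and 59.7 for all tested genes. The kit does not mark strand, and 42 of the 90 members share annotated exonic bases with another gene, 16 of them over 10% of their own. The largest share was that of Apex1, with 61.7% shared with Pip4p1, so the counts of these 2 genes cannot be fully told apart. For Brca2 the share was 0.301%, for Palb2 5.64%, and Xrcc1 shared none. Larger shares, all with genes on the opposite strand, were those of Lig3, 25.1% with Rffl, and of Ercc2. Ercc2 shared 24.6% with Gm26852, which was not listed, and 17.8% with Klc3.

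Partners of 1 complex were set side by side, in 18 complexes that gave 27 pairs, as differences of log2 fold changes with SEs combined as if independent. In 24 pairs the 95% interval of the difference included 0, which does not show that the partners moved alike. The difference was 0.72 (95% interval 0.29 to 1.15) for Xrcc1 minus Lig3. For Brca2 minus Palb2 it was 0.47 (-0.20 to 1.14), so these 2 partners were not separated. The other 2 pairs that left out 0 were Ercc2 minus Ercc3, at 1.00 (0.08 to 1.92), and Ercc8 minus Ercc6, at 0.67 (0.05 to 1.28). These intervals are not adjusted for the number of pairs, nor for the trend in length and GC. Ercc2 had a mean normalized count of 41.5, and with that trend removed its log2 fold change was 0.81 in place of 0.96.

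**Figure D4:**
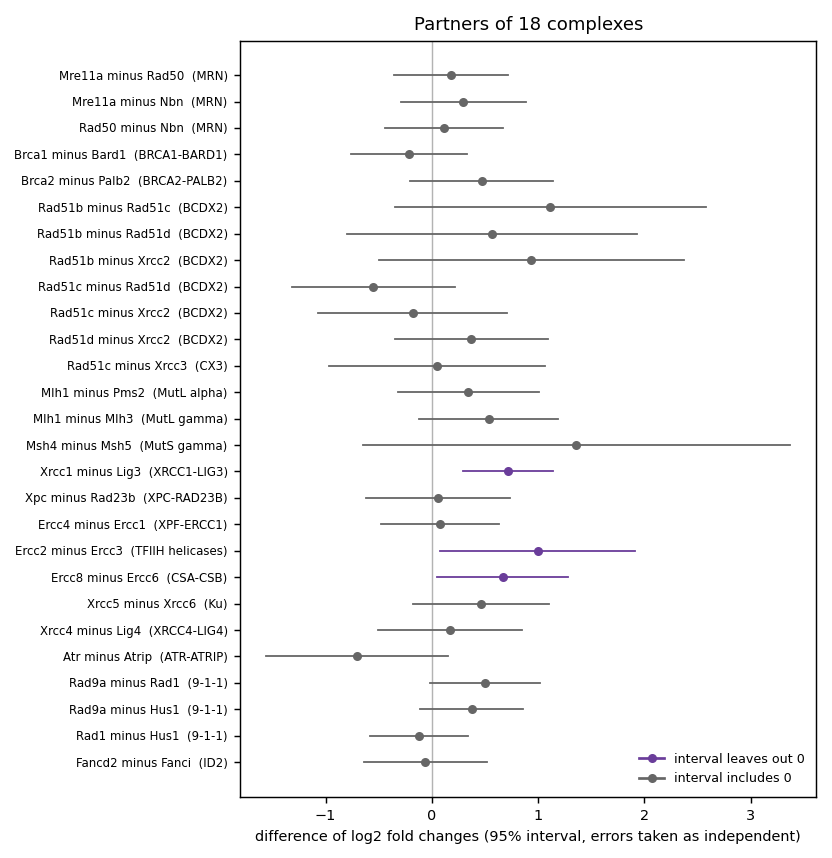
Differences of log2 fold changes (siNr1h2 over siNT) between partners of 18 complexes, with 95% intervals that take the errors as independent. The 3 pairs whose interval leaves out 0 are in purple: Xrcc1 minus Lig3, Ercc2 minus Ercc3 and Ercc8 minus Ercc6.

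Companion genes of repair, damage signalling and the cell cycle, which the symbol pattern does not match, were listed for 121 symbols. Of these, 3 fell and 118 did not pass, which is 2.48% beside backgrounds of 1.98% called in either direction and 1.52% lower. At an unadjusted p under 0.05, 9 were lower and 6 higher, beside backgrounds of 7.31% lower and 5.97% higher. Both directions made 12.4%, beside 13.3% of all tested genes, which is near the background, per the authors' deposited table. Etaa1, an activator of Atr at exposed single-stranded DNA, had implied levels of 418 in siNr1h2 and 693 in siNT and was 1.66 times lower (95% interval 1.32 to 2.08, adjusted p = 0.00249 per the authors' deposited table). Nsmce2, the SUMO ligase of the Smc5 and Smc6 complex, was 1.37 times lower (1.15 to 1.64, adjusted p = 0.0342), and the replication clamp gene Pcna 1.32 times lower (1.12 to 1.55, adjusted p = 0.0473) per the authors' deposited table. The calls of Nsmce2 and Pcna were lost after removal of the length and GC trend, at adjusted p-values of 0.0907 and 0.151, and after centring on genes with a mean of at least 500, at 0.0654 and 0.0897. The call of Pcna was also lost with adjustment over all listed genes (adjusted p = 0.0535). Over all alternatives the adjusted p ran from 0.00185 to 1 for Nsmce2 and from 0.00240 to 1 for Pcna. Alkbh3, which reverses alkylation damage, had a ratio of 1.53 (1.17 to 1.99, adjusted p = 0.0652 per the authors' deposited table). Mad2l1bp, a Mad2 antagonist, stood at a log2 fold change of -0.40 ± 0.13 (SE) and the TFIIH subunit gene Gtf2h2 at -0.40 ± 0.13, with adjusted p-values of 0.0787 and 0.0905 per the authors' deposited table. The median of the 121 genes was 0.01.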

How the data were processed

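Polyadenylated RNA of mouse morulae, 2 siNr1h2 and 2 siNT samples, was made into libraries with SMART-Seq v4 and Nextera XT, per the labels' protocols. The submitters' processing notes name mm9 as the build and, without role or parameters, the tools DESeq2, edgeR, STAR, Cufflinks 2.2.1, RSEM and HTSeq 0.12.4. The deposited table has the column names of a DESeq2 result, per the file headers: the authors' mean normalized count (a signal, counts over size factors), log2 fold change and SE, Wald statistic (a score), p-value and adjusted p-value. The statistic equalled fold change over SE, and the adjusted p was that of Benjamini and Hochberg for 12069 genes; 1589 genes, with means up to 8.00, had none. The authors' tests were used as deposited. Values of 3 members are not reported here, though the counts and medians over members include them. Columns of per-sample values left unused numbered 0.

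Intervals are fold change ± 1.96 SE. The fold needed for a call is from the largest called p (0.000974) and the SE. Transcript length, GC and exon overlap came from GENCODE M21 on GRCm38, by symbol, and 99.4% of tested genes had a length. That build differs from mm9, so no gene coordinates are given; promoter coordinates belong to the RefSeq table. The text names called members, the 4 smallest p-values and the most abundant gene per route, the extremes among members with a mean of at least 50, and 6 companion genes; further members complete a complex or count and were picked with values seen. Members, lists, complexes and alternatives were chosen with earlier results of these data known. Python 3.11.15, pandas 2.3.3 and scipy 1.17.1 were used, and scripts were tested on simulated fold changes.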

Additional observations from a re-analysis of the deposited data

How the results depend on the processing

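Of the repair members, 1 was lower and 1 higher at the main setting. A threshold of 0.01, Holm adjustment and a t distribution with 2 degrees of freedom each gave 0 lower and 0 higher. Over all tested genes, 92 were lower and 17 higher at a threshold of 0.01, and 48 and 1 under Holm. The t distribution leaves so few degrees of freedom that 0 of 12069 genes passed, so it says nothing about stability. A minimum fold of 1.5 gave 0 lower, since Brca2 fell by less, and removal of the length and GC trend gave 0 higher. The whole table gave 131 lower and 44 higher genes with that minimum fold, and 142 and 47 with the trend removed. There were 2 lower members at a threshold of 0.1, where 270 genes of the table were lower and 125 higher. Adjustment over genes with a mean of at least 50 also gave 2, beside 172 lower and 50 higher of 9033 genes. Palb2 was the second in both settings. Centring on ribosomal protein genes gave 3 lower members, with Palb2 and Ercc6. That centring moved every log2 fold change by 0.11 downward and gave 439 lower and 37 higher genes over the table, against 184 and 55; centring on genes with a mean of at least 500 gave 142 and 82. The members' median log2 fold change of -0.02 ran from -0.13 with the ribosomal centring to 0.02 with the other. Companion genes lower numbered 3, against 2 with adjustment over all listed genes, where Pcna was lost, 1 at a threshold of 0.01, with a minimum fold of 1.5, centred on means of at least 500 and with the trend removed, 0 under Holm and the t distribution, and 5 at a threshold of 0.1 and centred on ribosomal protein genes. Companion genes higher numbered 0, against 1 at a threshold of 0.1 and centred on means of at least 500. Adjustment over all listed genes and without unnamed gene models kept both member calls. Over the table these gave 166 lower and 48 higher genes, and 160 and 52. Leaving out each replicate and a second count test were not run. No paired analysis was possible because the columns carry no values per sample.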
